A study of Mus musculus with 30 samples.

Results

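Transcript levels in the terminal ileum of Mem+Sol mice were compared with those of WT mice, using 11 of the series' 30 RNA sequencing libraries. They are the 6 Mem+Sol and the 5 WT columns of the deposited ileum count table, chosen by the group named in each column. Mem+Sol mice overexpressed the cytokine TL1A in a membrane-bound and a soluble form. The other group is labelled WT and served as control, although its label also speaks of TL1A under the promoter of CD2, a surface protein of T cells and natural killer cells. The labels do not say which genotype that wording describes, and they name no promoter for Mem+Sol. All 11 libraries are given as C57bl/6 background and batch 3, and 1 of 5 WT and 3 of 6 Mem+Sol libraries came from females. Neither age nor founder line is given. Since the labels name no individual mice, the p-values below describe how much these libraries vary, and that variation may be technical. A further 5 ileum libraries of mice with membrane-restricted TL1A entered the fit for a common estimate of spread and were not compared.

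TL1A, encoded by Tnfsf15, is a member of the tumour necrosis factor family that can be shed from the cell surface, and its receptor DR3, encoded by Tnfrsf25, sits mainly on T cells and innate lymphoid cells. In the small intestine, type 2 lymphocytes release IL-13, which acts on epithelial progenitors, goblet cells and smooth muscle. Tuft cells, rare chemosensory epithelial cells, release IL-25 and leukotrienes that act on those lymphocytes. The terminal ileum is also where enterocytes take up bile acids, besides the brush border digestion and nutrient transport found along the small intestine.

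Sequencing depth differed between the groups, with 4295039 to 13226790 counts in WT and 12482151 to 36133187 in Mem+Sol libraries. Levels are given as CPM, counts scaled to 1e6 of the normalized library size, and fold changes as log2 of Mem+Sol over WT ± standard error (SE), from 5 WT and 6 Mem+Sol libraries. A level given as a span runs from the lowest to the highest library of a group. Fabp6, the cytosolic bile acid binding protein of the ileum, stood at 4155 to 7172 CPM in WT and the bile acid transporter Slc10a2 at 37.6 to 389 CPM, both markers of the labelled tissue. The library WT 2 also carried genes of the upper small intestine that the other 4 WT libraries nearly lacked, with lactase (Lct) at 518 CPM against 0.747 to 2.48 and the phospholipase Plb1 at 1343 CPM against 0.386 to 8.6. On the first principal component, which held 48.4% of the variance, WT libraries lay between -78.3 and -45.8 and Mem+Sol libraries between 11.2 and 82.6. Mem+Sol 1 lay nearest to WT and Mem+Sol 6 farthest.

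Of 14959 genes tested, 4296 (28.7%) differed at an adjusted p under 0.05, 2486 higher (16.6%) and 1810 lower (12.1%) in Mem+Sol. These 3 shares are the background against which counts of list members are to be read. A difference of at least 4-fold was reached by 436 of the higher and 157 of the lower genes. In 1132 genes (7.57%) every Mem+Sol library lay above every WT library, and in 893 (5.97%) every one lay below. Where a list below held no call by edgeR in a direction, no member had an unadjusted p under 0.05 in that direction and DESeq2 called none, except as stated. The split of calls depended on the scaling. When libraries were scaled to 5 general epithelial genes (Epcam, Cdh1, Cdh17, Krt8 and Krt19), 89.5% of the calls were higher instead of 57.9%, and the median of all genes shifted by 0.41. The plot of fold change against abundance shows every gene tested.

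**Figure D1:**
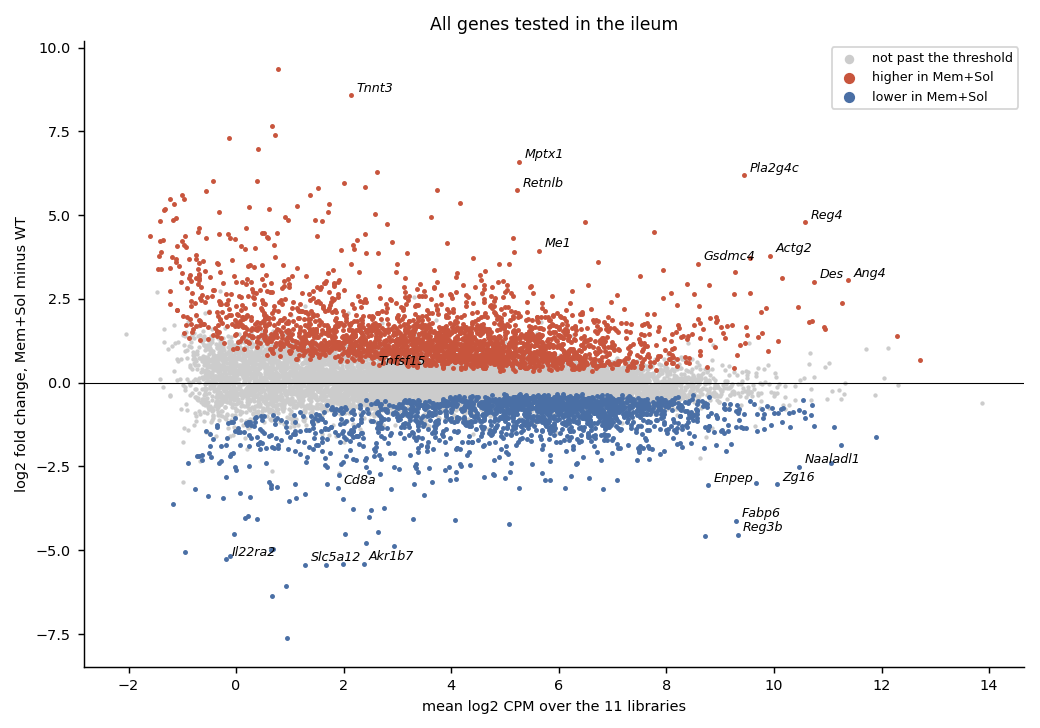
Each dot is 1 of 14959 genes, with the mean log2 CPM over the 11 libraries on the horizontal axis and the log2 fold change of Mem+Sol against WT on the vertical axis. Red dots are the 2486 genes called higher and blue dots the 1810 called lower. Pla2g4c, Reg4 and Ang4 stand high among abundant genes, and Reg3b, Fabp6 and Zg16 low.

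The gene with the smallest adjusted p was Pla2g4c, a cytosolic phospholipase A2 (chr7:13311507-13360674). Its level was 74.8, 41.7, 104, 68.1 and 52.1 CPM in the WT libraries and 2322, 6598, 7515, 7571, 5758 and 3166 CPM in the Mem+Sol libraries (log2 fold change 6.19 ± 0.45, adjusted p = 2.1e-06), without overlap between the groups. Mptx1, the mucosal pentraxin, went from 2.24–4.24 to 107–656 CPM (log2 fold change 6.59 ± 0.56, adjusted p = 4.9e-06). The largest fitted increase among genes above a mean log2 CPM of 1 belonged to Tnnt3, a troponin of fast skeletal muscle, listed at 0 to 0.386 CPM in WT and 13.8 to 214 CPM in Mem+Sol (log2 fold change 8.58 ± 0.96, adjusted p = 6e-05). Other large increases included those of the eosinophil chemokine Ccl24, the resistin-like genes Retnla and Retnlb, the pseudogene Gsdmcl-ps, Fcrlb, the keratin gene Krt84 and the calcium-binding protein gene Casq1, with log2 fold changes from 5.32 (Casq1) to 5.97 (Ccl24). The groups overlapped for Krt84, and its call was lost when Mem+Sol 4 and 6 were left out.

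Among the largest decreases, Slc5a12, a lactate transporter of the brush border, fell from 16.2–41.4 to 0–3.23 CPM (log2 fold change -5.43 ± 1.14, adjusted p = 0.0026). Akr1b7, an aldo-keto reductase (-5.41 ± 0.86), Cyp3a25, a cytochrome P450 (-5.40 ± 0.96), Ocm, encoding oncomodulin (-4.77 ± 1.15), and P2ry4, a nucleotide receptor (-4.52 ± 0.83), fell with them. In these 5 genes the highest Mem+Sol value came from Mem+Sol 1, which also held the highest Mem+Sol value in 74 of the 117 genes lower by at least 4-fold at a mean log2 CPM of at least 1. For P2ry4 DESeq2 gave no adjusted p. Enpp7, the alkaline sphingomyelinase, had 606 CPM in WT 2 and far less in the other 4 WT libraries (log2 fold change -5.43 ± 1.46, adjusted p = 0.012). Without WT 2 its log2 fold change was -3.42 with an adjusted p of 0.056 by edgeR's quasi-likelihood test. Small adjusted p-values were also reached by Me1, malic enzyme (3.94 ± 0.33), S100g, the vitamin D dependent calcium-binding protein (3.89 ± 0.39), Lrmp (2.91 ± 0.30), AA467197 (3.36 ± 0.37), the serine protease Htra1 (1.61 ± 0.18) and the fibronectin receptor chain Itga5 (2.93 ± 0.34), all higher in Mem+Sol.

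**Figure D2:**
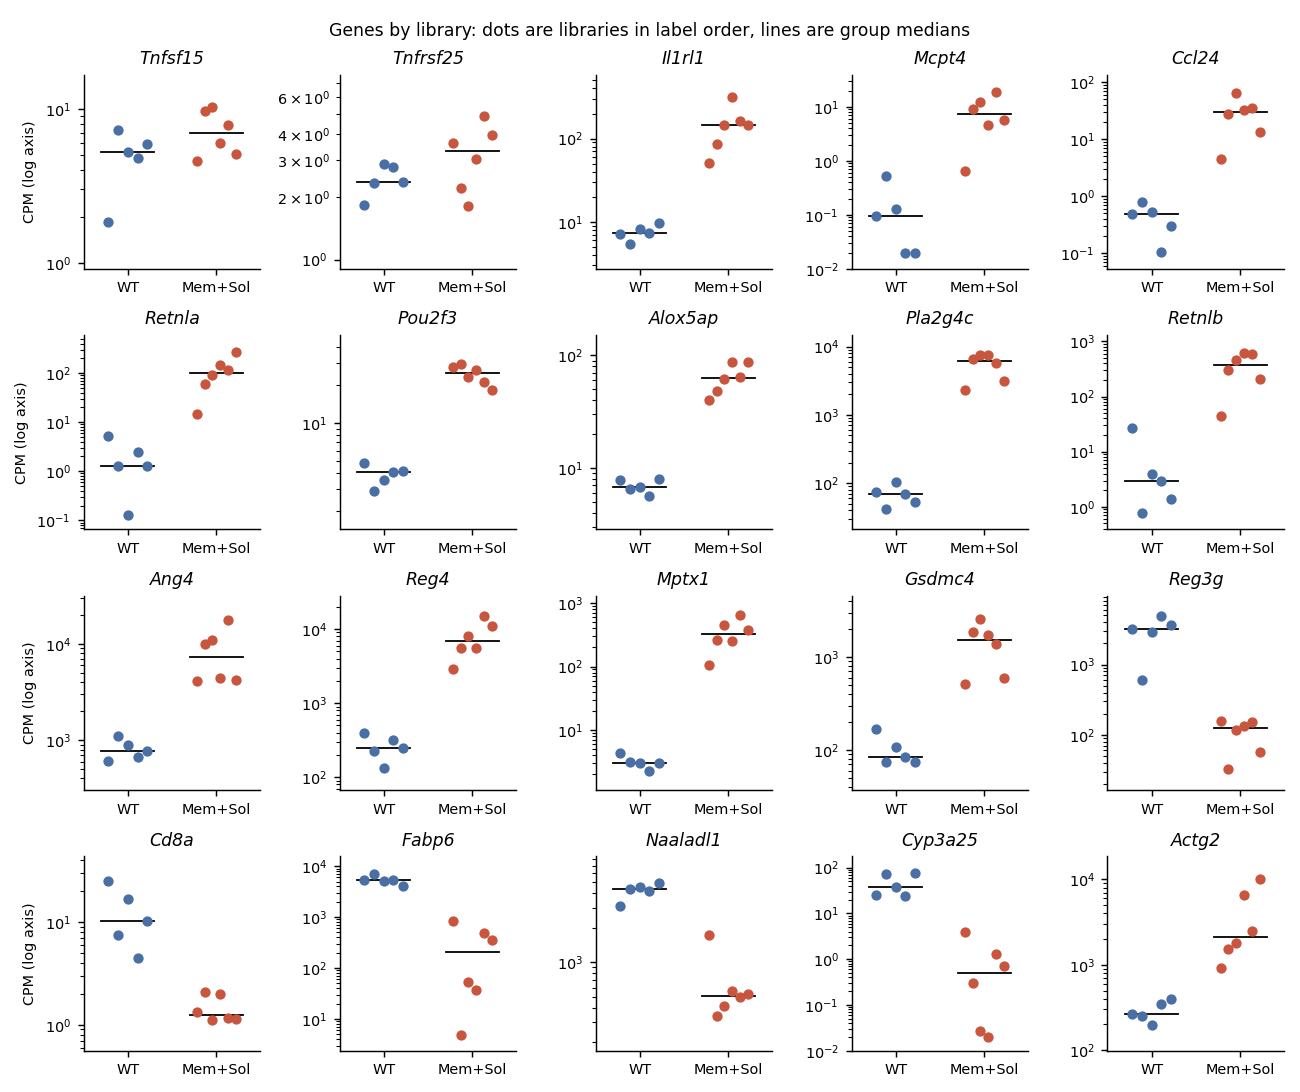
CPM on a log axis for 20 genes, with 1 dot per library (blue 5 WT, red 6 Mem+Sol) and a line at each group's median, zeros drawn at 0.02 CPM. Tnfsf15 and Tnfrsf25 overlap between the groups, and the other 18 genes do not.

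Tnfsf15 and Tnfrsf25, the genes of TL1A and its receptor, did not pass the test. Tnfsf15 (chr4:63724600-63745059) was measured at 1.83, 7.25, 5.21, 4.8 and 5.92 CPM in WT and 4.55, 9.64, 10.2, 6.0, 7.89 and 5.1 CPM in Mem+Sol (log2 fold change 0.43 ± 0.33, adjusted p = 0.34). Leaving out WT 1, the lowest library, turned the sign (log2 -0.03), and so did the male libraries alone (log2 -0.10). The sources used here do not say whether reads of the transgene would be counted under this symbol. Tnfrsf25, the receptor DR3, lay at 1.83 to 2.87 CPM in WT and 1.81 to 4.9 CPM in Mem+Sol (log2 fold change 0.48 ± 0.32, adjusted p = 0.26). Of 12 tested genes of the receptor's signalling chain none rose and 2 fell, with a median of -0.09 that became 0.24 under epithelial scaling. Relb, a subunit of NF-kappaB, fell from 151, 229.5, 177, 204 and 159 CPM to 75.3–108 CPM (log2 fold change -1.03 ± 0.16, adjusted p = 0.00040), without overlap. Birc3, a ubiquitin ligase bound to the receptor complex, gave -0.53 ± 0.18 (adjusted p = 0.039), a call lost under 12 of 23 alternatives. The adaptors Tradd (-0.38 ± 0.18), Traf2 (0.07 ± 0.14) and Ripk1 (-0.34 ± 0.14) did not pass.

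The type 2 lymphocyte list had 9 of 13 tested members higher and none lower (median 1.50), with 1 lower member by unadjusted p and by DESeq2. Whether lymphocytes or other cells carried these transcripts was not tested. Il1rl1, the IL-33 receptor ST2, was at 7.14, 5.44, 8.08, 7.26 and 9.72 CPM in the WT libraries and at 50.8, 87, 144, 320, 162 and 147 CPM in the Mem+Sol libraries (log2 fold change 4.33 ± 0.55, adjusted p = 0.00012), all above WT. Il17rb, the IL-25 receptor, went from 2.13–6.65 to 12.5–30 CPM (log2 fold change 1.96 ± 0.40, adjusted p = 0.0022). Rora, a transcription factor that innate lymphoid cells need, gave 1.44 ± 0.24, and Hpgds, which makes prostaglandin D2 in lymphocytes and tuft cells alike, gave 1.50 ± 0.29. The cytokine genes themselves were scarce. Il13 was listed at 0.0965, 0, 0.391, 0 and 0 CPM in WT and 0.198, 1.23, 3.78, 1.91, 3.74 and 0.237 CPM in Mem+Sol (log2 fold change 4.11 ± 1.43, adjusted p = 0.040), and Mem+Sol 1 and 6 lay within the WT range. Il5, the eosinophil growth factor, had 3 counts in all WT libraries together, and its level over all Mem+Sol libraries was 14.6-fold (exact 95% interval 4.9 to 71.9) that of WT. Il9r (2.13 ± 0.65), Klrg1 (1.39 ± 0.45) and Arg1, described with the macrophage genes, rose with overlap between the groups, and Gata3 (0.74 ± 0.50, adjusted p = 0.27), Areg (-0.41 ± 0.47) and Icos (0.60 ± 0.60) did not pass. With Mem+Sol 4 left out 5 members were higher, and with Mem+Sol 4 and 6 both left out there were 6. Of regulatory T cell genes 1 of 12 rose (Tnfrsf9, 1.37 ± 0.50) and 1 fell (Itgae, -1.29 ± 0.42), calls lost under 12 of 22 and 10 of 23 alternatives, and Foxp3 gave 1.10 ± 0.61 (adjusted p = 0.18).

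Cytotoxic and intraepithelial lymphocyte genes were lower in Mem+Sol. Of 12 tested members 9 fell and none rose (median -1.71), and 6 fell without overlap between the groups. Ccl5, a T cell chemokine, was at 82.9, 9.59, 40.8, 16.3 and 10.9 CPM in WT and 1.98, 2.61, 1.25, 2.82, 4.32 and 1.9 CPM in Mem+Sol (log2 fold change -3.73 ± 0.63, adjusted p = 0.00070). Cd7, a surface protein of intraepithelial lymphocytes, fell from 3.11–18.8 to 0.924–1.91 CPM (log2 fold change -3.01 ± 0.46, adjusted p = 0.00035), Klrd1, a natural killer receptor chain, from 1.6–3.78 to 0.33–0.664 CPM (log2 fold change -2.49 ± 0.35, adjusted p = 0.00023), and Gzmb, granzyme B, from 4.4–34.3 to 1.13–4.33 CPM (log2 fold change -2.68 ± 0.50, adjusted p = 0.0013). Gzma, granzyme A, fell as well (-2.66 ± 0.60), with 31.8 CPM in Mem+Sol 5 inside the WT range of 20.7 to 116 CPM. Cd8a, the coreceptor of cytotoxic T cells, was at 24.8, 7.51, 16.7, 4.48 and 10.2 CPM in WT and 1.32, 2.08, 1.12, 2.0, 1.16 and 1.13 CPM in Mem+Sol (log2 fold change -3.13 ± 0.42, adjusted p = 0.00016), while Cd4 gave -0.07 ± 0.35 (adjusted p = 0.90). Cd27 fell (-1.64 ± 0.34), Cd3e fell with overlap (-1.70 ± 0.57, a call lost under 12 of 23 alternatives), and the other 10 of 13 T cell receptor and costimulation genes did not pass. Of these 13 genes 5 were lower by DESeq2 and in the male libraries alone, and 8 when only the Mem+Sol and WT libraries were fitted. The cytotoxic list held 6 lower members without Mem+Sol 4 and 6.

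Of 7 type 3 lymphocyte genes 3 fell and 1 rose. Il22ra2, the soluble decoy receptor for IL-22, was at 4.44, 2.33, 3.13, 6.62 and 8.88 CPM in WT and 0.132, 0, 0.106, 0.273, 0.166 and 0.0593 CPM in Mem+Sol (log2 fold change -5.27 ± 0.53, adjusted p = 3.1e-05), without overlap between the groups. The IL-22 receptor chain Il22ra1 of epithelial cells fell as well (-0.89 ± 0.18). Il1r1 was the member that rose (0.99 ± 0.32), a call lost without WT 1, WT 4 or Mem+Sol 4. Few B cell and plasma cell genes were called. In each list 1 of 12 tested members fell and none rose (2 B cell genes at unadjusted p, none by DESeq2), the follicle chemokine Cxcl13 (-1.97 ± 0.53) and Sdc1 (-0.95 ± 0.22), which epithelial cells also express. Neither call was kept in the male libraries alone, nor that of Cxcl13 without Mem+Sol 4 and 6.

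The antigen presentation and interferon lists held a smaller share of calls than the 28.7% of all genes. The shares called lower were 14.3% of MHC class I and 18.2% of interferon genes, against 12.1% of all genes. None of 11 MHC class II genes passed in edgeR (median -0.66), while 2 were lower by unadjusted p and 1 by DESeq2, with Cd74 at -0.66 ± 0.44 and Ciita at -1.53 ± 0.60. Of 14 class I genes 2 fell, namely B2m (-0.91 ± 0.24) and the nonclassical H2-T3, which went from 119–212 to 46.9–71.1 CPM (log2 fold change -1.50 ± 0.22, adjusted p = 0.00031). In the interferon list 4 of 22 members fell (Irf7, -1.16 ± 0.23, and Ifit1, Oasl2 and Cxcl9) and Oas1a rose (0.66 ± 0.21). Irf7 was measured at 129.7, 97.9, 170.3, 113 and 131 CPM in WT and 39.7 to 89.6 CPM in Mem+Sol, without overlap. The interferon list held 1 lower member without Mem+Sol 4 and 6 and 2 under epithelial scaling, and the list held 2 without Mem+Sol 6 and 1 without WT 1. The call of Oas1a was lost under 8 of 23 alternatives, among them without WT 1, WT 2, WT 4 or Mem+Sol 4, and the call of B2m without WT 1 and under epithelial scaling.

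Mast cell genes rose in 6 of 9 tested members and fell in none (median 2.64). Mcpt4, a chymase of connective tissue mast cells, was listed at 0.0965, 0.518, 0.13, 0 and 0 CPM in WT and 0.66, 9.12, 12.2, 4.63, 18.8 and 5.64 CPM in Mem+Sol (log2 fold change 6.01 ± 0.94, adjusted p = 0.00041), and Tpsb2, a tryptase, went from 0.107–0.531 to 0.858–10.9 CPM (log2 fold change 4.33 ± 0.69, adjusted p = 0.00045). Kit, the stem cell factor receptor that interstitial pacemaker cells carry as well, went from 46.6–62.1 to 115–171 CPM (log2 fold change 1.24 ± 0.19, adjusted p = 0.00035). Mcpt1, a mucosal mast cell protease, was at 12.5, 4.4, 34.7, 2.88 and 2.58 CPM in WT and 14.9, 281, 182, 16.3, 168 and 41.1 CPM in Mem+Sol (log2 fold change 2.64 ± 1.11, adjusted p = 0.082), with high values in Mem+Sol 2, 3 and 5, the 3 female libraries, and low values in the 3 male ones. The summed level of the list was 59.47 to 107.6 CPM in WT, 426.5 to 587.7 CPM in the Mem+Sol females and 160.6 to 207.1 CPM in the Mem+Sol males. In the male libraries alone 2 members rose, and a difference between the sexes was not tested. Without WT 3 the list held 10 higher members. Some defining genes lay below the filter on low counts, among them Fcer1a, the IgE receptor chain, with 9 counts in all WT and 417 in all Mem+Sol libraries, Ms4a2 with 13 and 326, and Cma2 with 2 and 696.

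Eosinophil genes rose in 5 of 6 tested members (median 2.82). Siglec5, the symbol the table uses for the gene of Siglec-F, was at 7.91, 3.63, 8.08, 9.07 and 8.43 CPM in WT and 47.9, 42.9, 47.8, 74, 31.8 and 30.8 CPM in Mem+Sol (log2 fold change 2.60 ± 0.34, adjusted p = 0.00014). Ccr3, the eotaxin receptor, went from 0–1.35 to 1.66–15.8 CPM (log2 fold change 4.11 ± 0.77, adjusted p = 0.0013), and Alox15, a lipoxygenase of eosinophils and macrophages, from 0–2.6 to 6.73–86.8 CPM (log2 fold change 4.43 ± 0.76, adjusted p = 0.00079). The granule protein genes were scarce: Prg3, Epx, Ear1, Ear2 and Ear6 had no more than 42 counts in any library and were not tested. Summed over WT and over Mem+Sol libraries, Ear2 had 3 and 84 counts and Prg3 0 and 11. Ear6 had 0 and 4, Ear1 0 and 1, and Epx 4 and 4. Prg2 did not pass in edgeR (1.37 ± 0.57), while all 6 tested members of the list were higher by unadjusted p and by DESeq2. Of 6 neutrophil genes 3 rose, namely Retnlg (3.86 ± 0.45), Cxcr2 (3.82 ± 1.00) and Mmp9 (2.12 ± 0.36). DESeq2 gave no adjusted p for Cxcr2. S100a8 and S100a9, the main calprotectin genes of neutrophils, were untested for low counts, with 3 and 7 counts in WT and 278 and 392 in Mem+Sol libraries together. The Mem+Sol counts sat mostly in a single library for each, 220 of 278 and 302 of 392.

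Macrophage genes are given in 2 lists. Of 17 general macrophage genes 5 rose and 1 fell (median 0.39), while of 17 genes of alternative activation 11 rose and none fell (median 1.89). Retnla, the secreted resistin-like molecule alpha (chr16:48842609-48844461), was at 5.11, 1.29, 0.13, 2.46 and 1.29 CPM in WT and 15, 60.9, 89.8, 149, 116 and 269 CPM in Mem+Sol (log2 fold change 5.75 ± 0.75, adjusted p = 0.00014), without overlap. Mgl2, a galactose lectin, went from 1.55–5.11 to 9.57–43.7 CPM (log2 fold change 2.78 ± 0.39, adjusted p = 0.00023), and the folate receptor Folr2 from 0.518–1.16 to 1.45–4.81 CPM (log2 fold change 2.16 ± 0.35, adjusted p = 0.00054). Arg1, arginase, was at 0.924, 13.3, 33.8, 79, 2.99 and 2.97 CPM in the Mem+Sol libraries against 0.482 to 1.17 CPM in WT (log2 fold change 4.83 ± 1.10, adjusted p = 0.0042), high in Mem+Sol 2, 3 and 4 and inside the WT range in Mem+Sol 1. Chil3 (3.57 ± 0.95) and Chil4 (7.31 ± 1.54), chitinase-like proteins, rose with Mem+Sol 1 inside the WT range again. Mertk, a receptor for dying cells, was the general member that fell, from 37.4–94.3 to 10.1–28.8 CPM (log2 fold change -1.77 ± 0.32, adjusted p = 0.00096), while Emr1, the older symbol for F4/80, rose (0.91 ± 0.28) and Csf1r did not pass (0.45 ± 0.29, adjusted p = 0.25). Without Mem+Sol 4 and 6 the alternative activation list held 6 higher members and the general list 2, against 9 in the general list under epithelial scaling and 3 without WT 2, WT 4 or Mem+Sol 4. Of 16 dendritic cell genes 3 rose and Itgae fell, with Fscn1 (1.42 ± 0.19) and Batf3 (1.57 ± 0.35) among the higher ones.

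Chemokine genes moved in both directions. Of 20 tested genes 5 rose and 6 fell. Ccl24, eotaxin-2, was at 0.482, 0.777, 0.521, 0.107 and 0.304 CPM in WT and 4.55, 27.9, 65.6, 33.1, 35.5 and 13.6 CPM in Mem+Sol (log2 fold change 5.97 ± 0.95, adjusted p = 0.00048), and Ccl8 went from 1.22–5.5 to 5.87–53.5 CPM (log2 fold change 2.86 ± 0.46, adjusted p = 0.00051). The monocyte chemokines Ccl2 (2.33 ± 0.47) and Ccl7 (2.95 ± 0.76) rose with overlap, the call of Ccl2 being lost without Mem+Sol 4 and 6, and Ccl11, eotaxin-1, did not pass (1.17 ± 0.45, adjusted p = 0.063). Those that fell were the T cell attractants Ccl5 and Cxcl9, the B cell attractant Cxcl13, Cx3cl1 (-0.45 ± 0.16), and the epithelial chemokines Ccl25 (-1.39 ± 0.30), which draws lymphocytes to the small intestine, and Ccl28 (-2.71 ± 0.85). Without Mem+Sol 4 and 6 the list held 3 higher and 2 lower members, and under epithelial scaling 9 and 3. Without WT 1 or without Mem+Sol 6 it held 3 lower members. Of 19 complement genes 9 rose and 2 fell, and C3, the central component, was at 385, 66.8, 83.1, 117 and 49.8 CPM in WT and 200, 1470, 1571, 581, 671 and 578 CPM in Mem+Sol (log2 fold change 2.33 ± 0.42, adjusted p = 0.0011). WT 1 lay above Mem+Sol 1 for C3. Cd55, which protects cells from complement, went from 33.1–74.2 to 98–699 CPM (log2 fold change 2.63 ± 0.43, adjusted p = 0.00057).

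The tuft cell list moved almost whole. Of 24 tested members 23 rose and none fell (median 2.58), and in 22 every Mem+Sol library lay above every WT library, against 7.57% of all genes. Pou2f3, on which tuft cell fate depends, was at 4.82, 2.85, 3.52, 4.06 and 4.17 CPM in WT and 27.6, 29.4, 23.1, 26.2, 21 and 18.1 CPM in Mem+Sol (log2 fold change 2.58 ± 0.27, adjusted p = 3.9e-05). Gfi1b, a transcription factor of these cells, was at 0.386, 0.259, 0.261, 0.427 and 0.38 CPM in WT and 4.29, 4.1, 3.83, 7.59, 5.23 and 4.15 CPM in Mem+Sol (log2 fold change 3.76 ± 0.38, adjusted p = 3.1e-05). Both genes were without overlap, and Mem+Sol 1 lay among the other Mem+Sol libraries. Trpm5, the cation channel of taste transduction, went from 12–21.5 to 54.8–145 CPM (log2 fold change 2.69 ± 0.32, adjusted p = 8.6e-05), and Dclk1, a kinase used as tuft cell marker, from 16.6–26.7 to 77.2–153 CPM (log2 fold change 2.39 ± 0.30, adjusted p = 0.00012). The G protein subunits Gnat3 (2.57 ± 0.72) and Gng13 (3.09 ± 0.52), the succinate receptor Sucnr1 (2.97 ± 0.51), the acetylcholine enzyme Chat (1.72 ± 0.27) and the factors Spib (2.58 ± 0.29), Hmx2 (2.54 ± 0.37) and Hmx3 (2.33 ± 0.40) rose as well. Il25 itself was scarce, at 0.386, 0, 0.261, 0.213 and 0.152 CPM in WT and 0.462, 0.521, 0.532, 1.41, 0.831 and 1.42 CPM in Mem+Sol (log2 fold change 1.95 ± 0.51, adjusted p = 0.0095). Tas1r3, a sweet and umami receptor chain, was the member that did not pass (-0.34 ± 0.35, adjusted p = 0.49). The summed level of the list was 151.5 to 225.1 CPM in WT and 617.8 to 1022 CPM in Mem+Sol. As for every list in this bulk tissue, more cells of a type and more RNA per cell cannot be told apart.

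Pou2f3 belongs to the POU family, whose members bind the octamer motif ATGCAAAT. The motif was searched on both strands of RefSeq promoters of GRCm38.p6, 250 bases before to 50 bases after the start that the RefSeq promoter table uses. It was found in 3 of the 27 promoters of the 22 tuft cell members with an entry, and in 1.735% of 32851 promoters. These 3 promoters, each of a different gene, are shown with the motif, or its reverse complement ATTTGCAT, in capitals. All 3 genes rose, but so did 23 of the 24 tested members, so their rise says nothing about the motif. Sucnr1 (chr3:60081619-60081918, plus strand) has it at -48, Hpgds (chr6:65144681-65144980, minus strand) at -174 in a window that lies inside the annotated gene, and Ly6g6d (chr17:35081190-35081489, minus strand) has 2 matches in reverse, the first at -48 from the start.
Sucnr1: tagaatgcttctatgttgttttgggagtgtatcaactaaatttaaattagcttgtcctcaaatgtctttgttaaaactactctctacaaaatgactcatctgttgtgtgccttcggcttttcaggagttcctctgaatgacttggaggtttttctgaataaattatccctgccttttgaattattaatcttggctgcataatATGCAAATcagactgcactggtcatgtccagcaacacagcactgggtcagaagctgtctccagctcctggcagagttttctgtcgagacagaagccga
Hpgds: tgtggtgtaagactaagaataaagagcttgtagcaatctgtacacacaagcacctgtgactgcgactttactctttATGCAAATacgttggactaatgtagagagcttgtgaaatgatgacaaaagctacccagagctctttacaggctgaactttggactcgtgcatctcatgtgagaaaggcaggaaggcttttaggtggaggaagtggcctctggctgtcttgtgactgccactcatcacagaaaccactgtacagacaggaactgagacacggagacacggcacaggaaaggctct
Ly6g6d: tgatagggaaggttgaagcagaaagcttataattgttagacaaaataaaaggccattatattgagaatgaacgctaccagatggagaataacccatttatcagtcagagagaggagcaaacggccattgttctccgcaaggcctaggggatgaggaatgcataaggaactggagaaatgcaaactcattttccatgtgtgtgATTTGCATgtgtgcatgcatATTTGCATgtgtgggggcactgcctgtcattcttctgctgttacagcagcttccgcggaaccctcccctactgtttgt
A match of letters is not a binding site, and the other members with an entry had no match in this window. Ly6g6d went from 0.835–1.81 to 5.21–14.6 CPM (log2 fold change 2.99 ± 0.31, adjusted p = 3.9e-05) and Ly6g6f from 0.531–1.71 to 5.98–9.73 CPM (log2 fold change 2.96 ± 0.38, adjusted p = 0.00014). The annotated spans of these 2 genes overlap, so their reads may be shared.

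**Figure D3:**
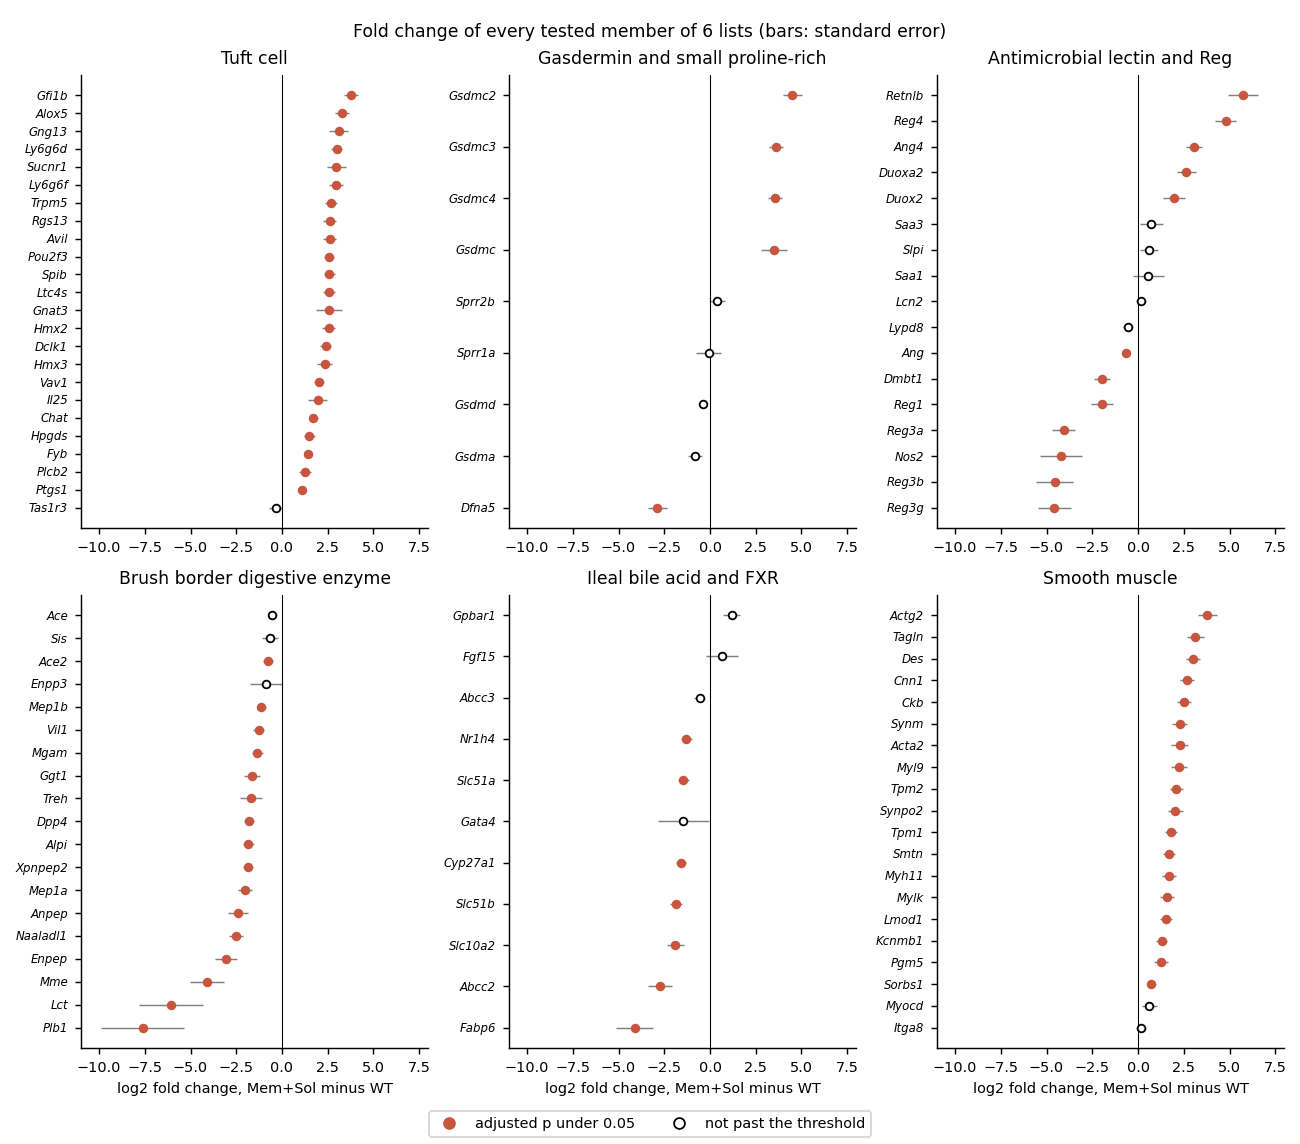
Log2 fold change of Mem+Sol against WT with its SE for every tested member of 6 lists, filled dots where the adjusted p is under 0.05. Of the tuft cell genes 23 of 24 lie to the right, of the brush border genes 16 of 19 lie to the left as filled dots, and the Reg and antimicrobial list splits.

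Eicosanoid synthesis genes rose in 12 of 20 tested members and fell in 3, and Pla2g4c was the largest of them. Alox5, Ltc4s and Ptgs1, given below, are counted in the tuft cell list too. Alox5ap, which presents arachidonic acid to 5-lipoxygenase, was at 7.72, 6.48, 6.78, 5.66 and 7.97 CPM in WT and 40.2, 48.4, 61.5, 87, 63.8 and 87.9 CPM in Mem+Sol (log2 fold change 3.22 ± 0.34, adjusted p = 4e-05). Alox5, the 5-lipoxygenase, went from 2.85–7.43 to 33.2–68.7 CPM (log2 fold change 3.28 ± 0.39, adjusted p = 8.6e-05), and Ltc4s, leukotriene C4 synthase, from 2.66–7.77 to 15.5–43.3 CPM (log2 fold change 2.58 ± 0.34, adjusted p = 0.00014). Lta4h, which makes leukotriene B4 from the same precursor, fell from 209–289.9 to 129.7–193 CPM (log2 fold change -0.56 ± 0.14, adjusted p = 0.0084). The cyclooxygenases Ptgs1 (1.10 ± 0.19) and Ptgs2 (1.61 ± 0.32) and the prostacyclin synthase Ptgis (2.11 ± 0.36) rose, and Hpgd, which degrades prostaglandins, fell (-0.84 ± 0.27). The cysteinyl leukotriene receptors Cysltr1 (0.65 ± 0.34) and Cysltr2 (0.37 ± 0.36) did not pass. Without Mem+Sol 4 and 6 the list held no lower member, and under epithelial scaling 1.

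Goblet cell genes did not move together. Of 21 tested members 5 rose and 4 fell (median 0.05). Retnlb, resistin-like molecule beta, was at 26.5, 0.777, 3.91, 2.88 and 1.37 CPM in WT and 44.2, 309, 452, 618, 591 and 208 CPM in Mem+Sol (log2 fold change 5.75 ± 0.84, adjusted p = 0.00026), with WT 1 above the other WT libraries and Mem+Sol 1 below the other Mem+Sol libraries. Ang4, an antimicrobial ribonuclease, went from 605–1116 to 4098–17860 CPM (log2 fold change 3.06 ± 0.44, adjusted p = 0.00024). Clca3, the table's symbol for the gene also called Gob5, went from 2133–3886 to 4143–15830 CPM (log2 fold change 1.41 ± 0.35, adjusted p = 0.0071). The mucin gene Muc2 lay at 3095 to 4607 and 2500 to 8717 CPM (log2 fold change 0.13 ± 0.28, adjusted p = 0.77). Zg16, a lectin of the mucus that binds bacteria, fell from 3850, 5489, 3695, 4410 and 3759 CPM to 582, 93.8, 98.2, 316, 1201 and 802 CPM (log2 fold change -3.03 ± 0.61, adjusted p = 0.0020), and Fcgbp, a mucus structural protein, fell from 5903–8365 to 1543–3625 CPM (log2 fold change -1.62 ± 0.25, adjusted p = 0.00041). Tff3 (-0.97 ± 0.27) and Muc13 (-1.04 ± 0.26) fell too, while the goblet cell factors Spdef (0.60 ± 0.23) and Atoh1 (-0.39 ± 0.34) did not pass. In the male libraries alone 2 members rose, and the median was -0.22.

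Targets of the type 2 cytokines IL-4 and IL-13 were higher in 10 of 20 tested cases (median 1.15), and Fcgbp fell. The list shares Retnla, Retnlb, Ccl24, Arg1, Chil3, Chil4, Clca3 and Ang4 with lists above. Il13ra2, the decoy receptor for IL-13, was at 0.264, 4.25, 10.7, 4.0, 6.89 and 1.6 CPM in Mem+Sol and had 2 counts in WT, a ratio of 122-fold (exact 95% interval 33.7 to 1011). The signalling chain itself did not pass, with Il4ra at 0.27 ± 0.17, Il13ra1 at -0.12 ± 0.22 and Stat6 at -0.44 ± 0.17 (adjusted p = 0.060). Without Mem+Sol 4 and 6 the list held 6 higher members, as it did in the male libraries alone. STAT proteins bind the palindrome TTCNNNNGAA, which was found in the promoters of 1 of 14 members with an entry, Retnla, and in 6.953% of all 32851. The Retnla promoter (chr16:48842359-48842658, plus strand) is shown as the one promoter of the list that holds it, with the match at -145 in capitals.
Retnla: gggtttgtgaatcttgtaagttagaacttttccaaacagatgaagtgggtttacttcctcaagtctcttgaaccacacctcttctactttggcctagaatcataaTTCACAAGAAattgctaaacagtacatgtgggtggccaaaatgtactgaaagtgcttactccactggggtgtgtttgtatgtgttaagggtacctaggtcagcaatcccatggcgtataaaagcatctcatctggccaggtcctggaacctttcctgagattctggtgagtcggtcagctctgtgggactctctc
Nothing in these data tests binding there.

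The gasdermin C genes, which lie side by side on chromosome 15, rose together. Gsdmc2 was at 52.8, 31.1, 50.8, 36.3 and 33.4 CPM in WT and 266, 1298, 2041, 1533, 1084 and 465 CPM in Mem+Sol (log2 fold change 4.50 ± 0.52, adjusted p = 7.2e-05). Gsdmc3 (3.60 ± 0.39), Gsdmc4 (3.54 ± 0.39) and the scarce Gsdmc (3.49 ± 0.72) rose without overlap, and reads of these near-identical copies may be shared between them. Gasdermins form membrane pores after cleavage. Dfna5, the table's symbol for gasdermin E, fell from 147–269.6 to 7.15–68.8 CPM (log2 fold change -2.89 ± 0.52, adjusted p = 0.0010), and Gsdmd did not pass (-0.41 ± 0.18).

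Within the Reg family and other antimicrobial genes 5 of 17 rose and 7 fell. Reg3g, a lectin that kills Gram-positive bacteria, was at 3206, 609.8, 2947, 4928 and 3637 CPM in WT and 158, 32.7, 116, 133, 153 and 56.4 CPM in Mem+Sol (log2 fold change -4.58 ± 0.92, adjusted p = 0.0020), and Reg3b was at 6160, 585, 5115, 9233 and 7166 and 525, 14.6, 119, 170.3, 348 and 112 CPM (log2 fold change -4.55 ± 1.00, adjusted p = 0.0035). WT 2 was the lowest WT library for both, at 609.8 and 585 CPM, and still above every Mem+Sol library. Reg4 went the opposite way, from 391, 227, 134, 317 and 246 CPM to 2861, 5527, 8096, 5577, 14800 and 11050 CPM (log2 fold change 4.79 ± 0.59, adjusted p = 9.3e-05), without overlap. Nos2, inducible nitric oxide synthase, fell from 105–532 to 2.31–26.1 CPM (log2 fold change -4.21 ± 1.14, adjusted p = 0.012), a call lost without WT 1 and without Mem+Sol 4 and 6. Duox2 (1.94 ± 0.60) and its maturation factor Duoxa2 (2.65 ± 0.52), which make hydrogen peroxide, rose with overlap. Reads of Reg3a, Reg3b and Reg3g may be shared between these paralogs.

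Of 16 Paneth cell genes 3 rose and 1 fell. Beside Mptx1, Nupr1, a stress-induced nuclear protein, went from 44.8–72.9 to 104–224 CPM (log2 fold change 1.21 ± 0.20, adjusted p = 0.00063), and Mptx2 rose with overlap (1.66 ± 0.56), a call lost under 8 of 23 alternatives. Lyz1, the Paneth cell lysozyme, was at 3524, 7960, 6306, 4942 and 6987 CPM in WT and 2179, 1019, 1393, 166, 5179 and 1015 CPM in Mem+Sol (log2 fold change -1.87 ± 0.61, adjusted p = 0.031). Its Mem+Sol values ran from below to inside the WT range, with Mem+Sol 5 inside it, and the call was lost under 8 of 23 alternatives. The alpha-defensins did not pass in either direction, from Defa21 (-2.25 ± 0.84, adjusted p = 0.055, groups without overlap) to Defa17 (1.19 ± 0.44, adjusted p = 0.054), and reads of these close copies may be shared. Matrilysin (Mmp7, 0.28 ± 0.54) and Pla2g2a (0.53 ± 0.38) did not pass. Under epithelial scaling 6 members rose and none fell, without Mem+Sol 4 there were 6 higher members, and without Mem+Sol 5 there were 4 lower.

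**Figure D4:**
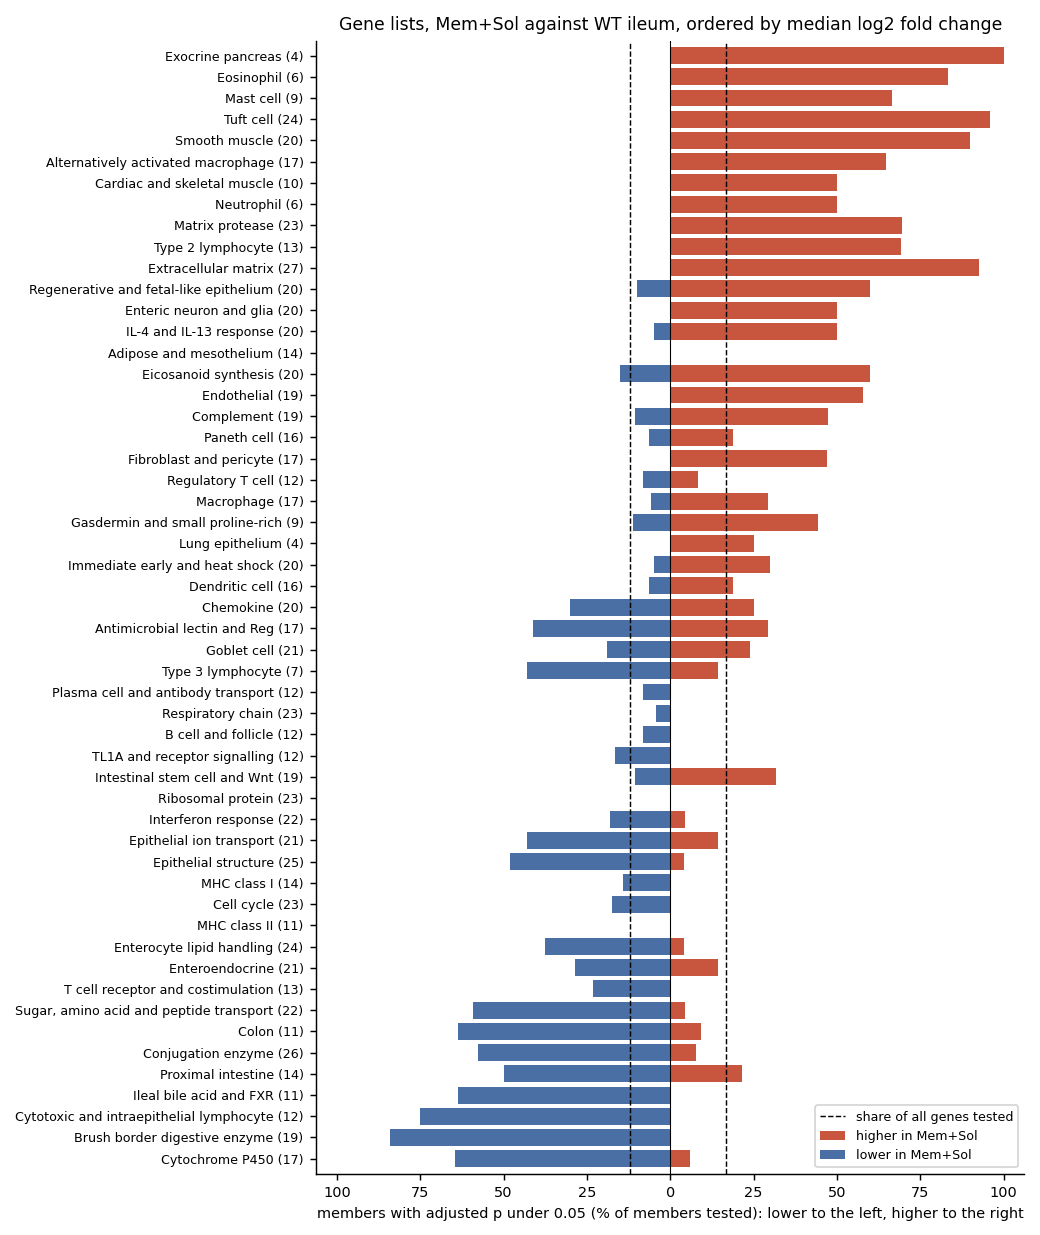
Share of tested members called higher (red, to the right) or lower (blue, to the left) in Mem+Sol for the 53 lists with at least 4 members tested, ordered by median log2 fold change, with the number tested in brackets. Dashed lines mark the shares of all genes, 16.6% higher and 12.1% lower. Tuft cell, matrix and smooth muscle lists pass far beyond the first line, and brush border, P450 and cytotoxic lists beyond the second.

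Digestive enzymes of the brush border fell in 16 of 19 tested members and rose in none (median -1.80). Naaladl1, a dipeptidase, was at 3120, 4369, 4548, 4162 and 4899 CPM in WT and 1742, 336, 409.7, 565, 492 and 525 CPM in Mem+Sol (log2 fold change -2.51 ± 0.39, adjusted p = 0.00044). Enpep, aminopeptidase A, fell from 1632–2484 to 53.5–709.6 CPM (log2 fold change -3.06 ± 0.62, adjusted p = 0.0021), Anpep, aminopeptidase N, from 5055–10600 to 202–3028 CPM (log2 fold change -2.41 ± 0.57, adjusted p = 0.0052), and Xpnpep2 from 323–558 to 64–172 CPM (log2 fold change -1.88 ± 0.27, adjusted p = 0.00025). Mem+Sol 1 was the highest Mem+Sol library for Naaladl1, Enpep and Anpep. The peptidases Dpp4 (-1.80 ± 0.29), Mep1a (-2.03 ± 0.38) and Mme (-4.09 ± 0.93), the phosphatase Alpi (-1.83 ± 0.30) and the cytoskeletal protein Vil1 (-1.28 ± 0.29) fell as well, while sucrase-isomaltase (Sis) gave -0.67 ± 0.44 (adjusted p = 0.27). For Lct (-6.06 ± 1.73) and Plb1 (-7.62 ± 2.26) the WT values rest on WT 2, as given above, and the other 4 WT libraries overlap with Mem+Sol. Without WT 2 the list held 12 lower members (median -1.57) and without Mem+Sol 4 and 6 it held 11. Its summed level was 17480 to 31450 CPM in WT and 5099 to 10320 CPM in Mem+Sol.

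The genes of ileal bile acid handling fell in 7 of 11 tested members and rose in none (median -1.47), with 1 higher by unadjusted p and by DESeq2. Fabp6 was at 5371, 7172, 5128, 5430 and 4155 CPM in WT and 841, 4.73, 53.2, 37.3, 493 and 351 CPM in Mem+Sol (log2 fold change -4.12 ± 1.00, adjusted p = 0.0063), with Mem+Sol 2 lowest and Mem+Sol 1 highest. The call of Fabp6 was lost when Mem+Sol 4 and 6 were left out. Slc10a2, the apical bile acid transporter, fell from 37.6–389 to 13.6–75.4 CPM with overlap (log2 fold change -1.90 ± 0.47, adjusted p = 0.0075), and the basolateral exporter chains Slc51a (-1.47 ± 0.30) and Slc51b (-1.85 ± 0.34) fell without overlap. Nr1h4, the bile acid receptor FXR, fell (-1.30 ± 0.29), as did the sterol hydroxylase Cyp27a1 (-1.58 ± 0.27). Fgf15, the hormone that FXR induces in the ileum, did not pass, at 25.1, 118, 30.1, 5.55 and 26.2 CPM in WT and 3.23, 13, 156, 145, 53.6 and 41.5 CPM in Mem+Sol (log2 fold change 0.67 ± 0.87, adjusted p = 0.59). The summed level of the list was 6205 to 9096 CPM in WT and 407.8 to 1601 CPM in Mem+Sol.

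Nutrient transporters fell in 13 of 22 tested members and rose in 1 (median -1.10). Slc34a2, the phosphate transporter, was at 834, 1042, 1124, 1102 and 1069 CPM in WT and 279, 245, 230.5, 413, 208 and 237 CPM in Mem+Sol (log2 fold change -1.87 ± 0.23, adjusted p = 9.4e-05). The amino acid transporters Slc6a20a (-2.84 ± 0.46), Slc6a19 (-2.30 ± 0.33) and Slc7a9 (-1.23 ± 0.18), the peptide transporter Slc15a1 (-1.48 ± 0.29) and the dicarboxylate transporter Slc13a2 (-2.43 ± 0.64) fell without overlap. The glucose transporters Slc5a1 (-0.31 ± 0.27) and Slc2a2 (1.34 ± 1.29) did not pass, and the monocarboxylate transporter Slc16a1 rose (0.45 ± 0.16), a call lost under 12 of 23 alternatives. Of 24 genes of lipid handling 9 fell and 1 rose. The sterol exporter pair Abcg5 (-2.07 ± 0.29) and Abcg8 (-2.40 ± 0.33) fell, as did Fabp2, the intestinal fatty acid binding protein, from 1561–10260 to 65.7–868 CPM (adjusted p = 0.0072), while Fabp1, the liver form, rose from 3.96, 28.5, 3.78, 4.59 and 5.69 CPM to 53.1, 45.3, 48.9, 88.8, 144 and 104 CPM (log2 fold change 3.32 ± 0.60, adjusted p = 0.0010). The apolipoproteins Apoa1 (-0.06 ± 0.33), Apob (-0.80 ± 0.41) and Apoa4 (1.19 ± 0.71) did not pass. The lipid list held 5 lower members without Mem+Sol 4 and 6.

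Cytochrome P450 genes fell in 11 of 17 tested members, all 11 without overlap between the groups, and Cyp1b1 rose (0.74 ± 0.25), a call lost without WT 3, WT 4, Mem+Sol 4 or Mem+Sol 6. Cyp3a25, an enzyme of drug and steroid oxidation, was at 24.8, 74.1, 38, 24.2 and 77.4 CPM in WT and 3.89, 0.298, 0.0266, 0, 1.33 and 0.712 CPM in Mem+Sol (log2 fold change -5.40 ± 0.96, adjusted p = 0.00096), and Cyp3a11 at 2.31, 76.7, 9.9, 14 and 40.8 and 0.792, 0, 0, 0, 0.582 and 0.0593 CPM (log2 fold change -6.38 ± 1.16, adjusted p = 0.0011). Mem+Sol 1 held the highest Mem+Sol value of both genes. The abundant fatty acid hydroxylase Cyp4f14 fell from 750.3–1385 to 329.6–521 CPM (log2 fold change -1.31 ± 0.20, adjusted p = 0.00037), and Cyp2d26 (-2.68 ± 0.41) and Cyp4v3 (-2.91 ± 0.49) fell as well. Reads of close Cyp3a copies may be shared. Of 26 conjugation enzymes and esterases 15 fell and 2 rose (median -1.14), among them the carboxylesterase Ces2a (-3.14 ± 0.48), the glucuronosyltransferase Ugt2b34 (-1.55 ± 0.21) and the sulfotransferase Sult1d1 (-1.97 ± 0.33). Gstm4 (1.15 ± 0.24) and Ephx1 (1.38 ± 0.33) were the members that rose.

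Ion transport genes fell in 9 of 21 tested members and rose in 3. Car4, a membrane carbonic anhydrase, was at 85.7, 84.7, 94.3, 188 and 164 CPM in WT and 259, 567, 872, 1470, 1178 and 1242 CPM in Mem+Sol (log2 fold change 2.95 ± 0.43, adjusted p = 0.00027), and Ano1, a calcium-activated chloride channel that pacemaker cells also carry, went from 21.4–45 to 59.3–228 CPM (log2 fold change 2.09 ± 0.44, adjusted p = 0.0028). The anion exchangers Slc26a6 (-1.17 ± 0.24) and Slc26a3 (-1.17 ± 0.25) and the chloride channel Cftr (-0.96 ± 0.32) fell. Under epithelial scaling 4 members were higher and 3 lower, without Mem+Sol 6 the list held 4 lower members, without WT 3 it held 5, and without Mem+Sol 4 and 6 it held 3. Of 25 junction and general epithelial genes 12 fell and 1 rose (median -0.48). Krt18, a keratin of simple epithelia, was the one that rose, from 336, 282, 336, 371 and 366 CPM to 552, 566, 853, 1320, 922 and 841 CPM (log2 fold change 1.33 ± 0.24, adjusted p = 0.00094), while its partner Krt8 did not pass (-0.22 ± 0.22). Hnf4a (-0.95 ± 0.26), a transcription factor of the enterocyte, and the claudins Cldn2 (-1.94 ± 0.44), Cldn3 (-0.85 ± 0.22) and Cldn7 (-0.89 ± 0.23) fell, and Epcam gave -0.48 ± 0.23 (adjusted p = 0.12). Under epithelial scaling 5 members of this list were lower, and 6 were in the male libraries alone and 7 without Mem+Sol 4 and 6.

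Among genes listed for a region of the gut, 7 of 14 tested genes of the upper small intestine fell and 3 rose. Of 11 tested colon genes 7 fell and 1 rose, and these 11 summed to 2288 to 3334 CPM in the WT ileum. The other 8 colon genes, among them Hoxb13, Hoxd13, Car1 and Aqp8, had no more than 12 counts in any library and were not tested. The calls therefore do not measure colon identity. Cubn, the vitamin B12 receptor, was counted in the upper intestinal list, although every WT ileum library held it, so its fall marks no upper intestinal gene. It went from 403–1277 to 2.08–305 CPM (log2 fold change -2.89 ± 0.78, adjusted p = 0.012). Gata4, which holds upper intestinal identity, was at 0.386, 98.7, 3.65, 2.24 and 1.37 CPM in WT and 1.65, 59, 5.24, 5.45, 4.65 and 5.87 CPM in Mem+Sol (log2 fold change -1.47 ± 1.39, adjusted p = 0.45), high in WT 2 and in Mem+Sol 2. Without WT 2 the upper intestinal list held 5 lower members, and its median went from -1.37 to -0.43. Each of the 2 lists held 4 lower members without Mem+Sol 4 and 6.

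Enteroendocrine genes fell in 6 of 21 tested members and rose in 3. Chga, chromogranin A, was at 90.4, 151, 73.1, 139 and 73 CPM in WT and 61.6, 57.1, 25.3, 20.3, 28.7 and 33.8 CPM in Mem+Sol (log2 fold change -1.40 ± 0.32, adjusted p = 0.0042), and Neurod1, a transcription factor of hormone cells, fell from 3.86–9.29 to 0.237–1.91 CPM (log2 fold change -2.36 ± 0.43, adjusted p = 0.0010). The hormone genes Gcg (-0.72 ± 0.30), Cck (0.30 ± 0.29), Pyy (-0.09 ± 0.34) and Sct (-0.87 ± 0.34) did not pass, and Nts fell (-1.10 ± 0.30). Tac1, the precursor of substance P made by neurons as well, rose from 11.6, 9.59, 13.9, 18.3 and 13.7 CPM to 34.4, 20.3, 23.9, 108, 42.9 and 159.9 CPM (log2 fold change 2.32 ± 0.40, adjusted p = 0.00074), highest in Mem+Sol 4 and 6. Sst (1.45 ± 0.30) and Scg2 (1.86 ± 0.39) rose too. Under epithelial scaling 2 members were lower, without Mem+Sol 4 and 6 there were 3, in the male libraries alone 10 and without Mem+Sol 5 there were 11.

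Stem cell and Wnt genes moved in both directions, with 6 of 19 higher and 2 lower, and their median of -0.12 became 0.37 under epithelial scaling. Lgr5, the stem cell receptor, fell (-1.07 ± 0.32), and Axin2, a Wnt target, fell from 126, 115, 151, 139 and 153 CPM to 94, 60.2, 42.3, 23.8, 44.6 and 29.8 CPM (log2 fold change -1.44 ± 0.30, adjusted p = 0.0026). Cd44 (1.05 ± 0.19) and the receptor Ephb3 (0.73 ± 0.18) rose. Without any of WT 1, 2, 3 and 4 or Mem+Sol 4 in turn the list held 3 higher members, and without Mem+Sol 4 and 6 it held 2. Cell cycle genes fell in 4 of 23 tested members (Ccna2, Ccnb1, Mcm5 and Foxm1, from -1.06 for Foxm1 to -0.58 for Ccna2), and Mki67 did not pass (-0.84 ± 0.35, adjusted p = 0.083). None of the 23 was called under epithelial scaling, nor without WT 3, Mem+Sol 4 or Mem+Sol 6. Leaving out WT 2, WT 4 or Mem+Sol 2 gave 2 lower members, and leaving out Mem+Sol 1 gave 12.

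Genes listed for regenerating and fetal-like epithelium rose in 12 of 20 tested members and fell in 2 (median 1.42). Whether their transcripts came from the epithelium or from other cells of the gut wall was not tested. Ctgf, a target of the YAP coactivator, was at 16.5, 7.51, 7.43, 13.9 and 10.2 CPM in WT and 62.8, 38.8, 53, 38.6, 92.9 and 69.4 CPM in Mem+Sol (log2 fold change 2.29 ± 0.27, adjusted p = 8.6e-05), and Krt17 went from 0.213–0.782 to 3.1–26.7 CPM (log2 fold change 4.86 ± 0.59, adjusted p = 8.6e-05). Anxa1 (1.70 ± 0.31), Cyr61 (1.98 ± 0.39) and Il33 (2.20 ± 0.70) rose without overlap. Anxa8 stood at 101 CPM in Mem+Sol 4 and at 0.528 to 10 CPM in the other 5 (log2 fold change 4.86 ± 1.38, adjusted p = 0.015). The summed level of the list was 3646 to 5431 CPM in WT, 2491 to 4437 CPM in Mem+Sol 1, 2, 3, 5 and 6, and 10350 CPM in Mem+Sol 4. Of this list 6 members rose without Mem+Sol 4 and 4 without Mem+Sol 4 and 6. Ly6a, often used to mark this state, did not pass (1.13 ± 0.45, adjusted p = 0.069).

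Matrix genes of the gut wall rose almost throughout. Of 27 tested genes 25 rose and none fell (median 1.49), and 14 did so without overlap. Fn1, fibronectin, was at 203, 147, 137, 93.3 and 179.5 CPM in WT and 669, 1375, 1580, 1383, 623 and 1552 CPM in Mem+Sol (log2 fold change 2.92 ± 0.39, adjusted p = 0.00017). The collagen-binding protein Sparc went from 176–379.8 to 548–1169 CPM (log2 fold change 1.96 ± 0.26, adjusted p = 0.00015), Col1a2 from 218–539 to 776–1557 CPM (log2 fold change 1.72 ± 0.26, adjusted p = 0.00032), and Thbs1, thrombospondin, from 60.4–90.3 to 157–182 CPM (log2 fold change 1.21 ± 0.14, adjusted p = 7.2e-05). For Col1a1 Mem+Sol 2 was the highest library at 1917 CPM, and Mem+Sol 6 lay at 770.1 CPM. Matrix proteases and their inhibitors rose in 16 of 23 members and fell in none, with Mmp14, a membrane protease (1.53 ± 0.26), Mmp23 (1.50 ± 0.20), Timp1 (2.65 ± 0.59) and Timp2 (1.52 ± 0.20) among them. Of 17 fibroblast and pericyte genes 8 rose and none fell. They included the Wnt agonist Rspo3 (2.08 ± 0.41), the BMP antagonist Grem1 (1.96 ± 0.50) and Cd34 (1.55 ± 0.23), while Pdgfrb (0.56 ± 0.21) and Thy1 (0.35 ± 0.24) did not pass. Of 19 endothelial genes 11 rose and none fell, among them Tie1 (0.98 ± 0.17) and Pecam1 (1.42 ± 0.25), and without Mem+Sol 4 and 6, as in the male libraries alone, 7 rose.

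Smooth muscle genes rose in 18 of 20 tested members and fell in none (median 1.93). Actg2, the enteric smooth muscle actin, was at 268, 254, 197, 343 and 394 CPM in WT and 916, 1536, 1793, 6595, 2498 and 10160 CPM in Mem+Sol (log2 fold change 3.79 ± 0.54, adjusted p = 0.00023). Des, desmin, went from 713, 614, 384, 913 and 551 CPM to 3065, 2891, 2230, 8142, 2546 and 11310 CPM (log2 fold change 3.01 ± 0.41, adjusted p = 0.00017), and the actin-binding protein Tagln from 248–562 to 1391–8271 CPM (log2 fold change 3.13 ± 0.48, adjusted p = 0.00034). Mem+Sol 4 and 6 stood apart from the other 4 Mem+Sol libraries in all 3 genes. The summed level of the list was 4503 to 9997 CPM in WT, 16950 to 24040 CPM in Mem+Sol 1, 2, 3 and 5, 50440 CPM in Mem+Sol 4 and 81510 CPM in Mem+Sol 6. With those 2 libraries left out, 14 members rose. Myocd, the coactivator of muscle genes, did not pass (0.62 ± 0.43, adjusted p = 0.29). The CArG box, the element that binds serum response factor, was found on either strand in the promoters of 1 of 15 members with an entry, Myl9, and in 1.629% of all 32851.

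Enteric neuron and glia genes rose in 10 of 20 tested members and fell in none (median 1.20), with the same 2 libraries highest. Their summed level was 125.9 to 281.2 CPM in WT, 317.6 to 421.1 CPM in Mem+Sol 1, 2, 3 and 5, 668.6 CPM in Mem+Sol 4 and 990.9 CPM in Mem+Sol 6. Gfap, the glial filament, went from 0.259–2.67 to 2.74–22.6 CPM (log2 fold change 2.53 ± 0.49, adjusted p = 0.0016), Tubb3, a neuronal tubulin, from 4.92–12.8 to 7.67–86.8 CPM (log2 fold change 2.04 ± 0.51, adjusted p = 0.0073), and Chat and Ano1 are shared with lists above. Nos1 (0.03 ± 0.72), Vip (0.29 ± 0.26) and Ret (0.52 ± 0.33) did not pass. The list held 6 higher members without WT 2 or without WT 3, 5 without Mem+Sol 6 and 3 without Mem+Sol 4 and 6. How much muscle wall each piece of ileum held is not given in the labels, and its part in these results was not tested. In the bars of summed levels by library the tuft cell list stood at 1022 CPM in Mem+Sol 4 and 698.3 CPM in Mem+Sol 6.

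**Figure D5:**
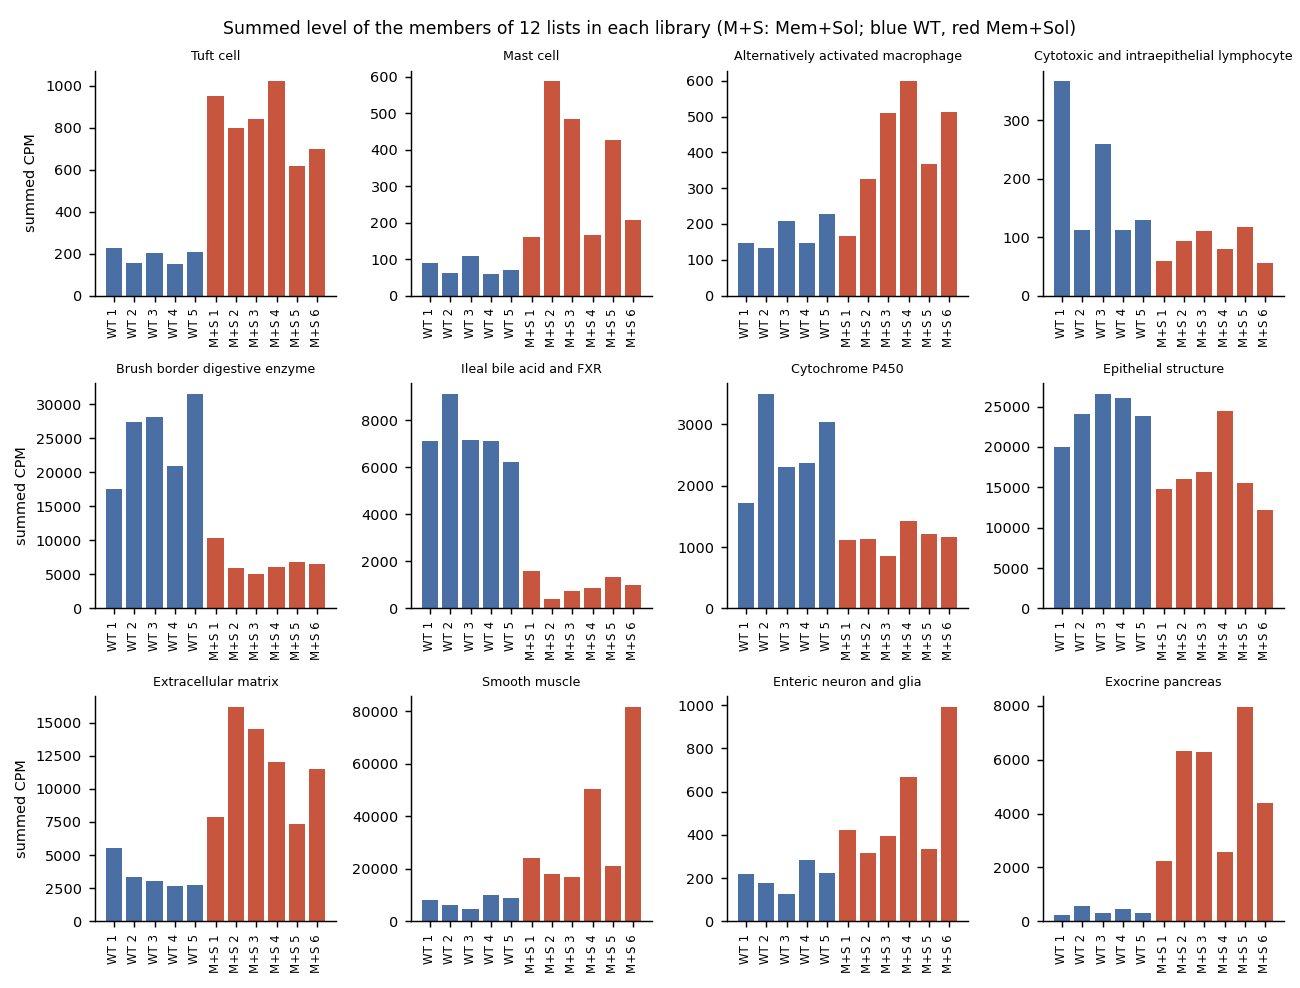
Summed CPM of the tested members of 12 lists in each library (blue bars 5 WT, red bars 6 Mem+Sol, each axis from 0). Smooth muscle and neuron lists are highest in Mem+Sol 4 and 6, mast cell genes in Mem+Sol 2, 3 and 5, and the tuft cell list lies between 617.8 and 1022 CPM in all 6.

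Lists of tissue that does not belong to the ileum were read in the same way. Of 4 tested exocrine pancreas genes 4 rose (median 3.51). Pnliprp2, a pancreatic lipase-related protein, was at 120, 253, 144, 192 and 174 CPM in WT and 1423, 3790, 4131, 1376, 4928 and 1935 CPM in Mem+Sol (log2 fold change 3.73 ± 0.51, adjusted p = 0.00020), and Clps, colipase, went from 122–304 to 776–2873 CPM (log2 fold change 3.30 ± 0.47, adjusted p = 0.00025). Pnliprp1 (4.94 ± 0.70) and Cela1 (1.52 ± 0.32) rose as well, the call of Cela1 being lost without Mem+Sol 4 and 6. The defining pancreatic genes were at or near 0: the other 12 genes of the list, among them Prss1, Amy2a5, Cpa1 and Cela3b, had no more than 68 counts in any library, and Prss1 and Amy2a5 had none. Of 10 striated muscle genes 5 rose, led by Tnnt3, with Actc1 at 2.55 ± 0.41, Ckm at 2.42 ± 0.51 and Casq1 at 5.32 ± 0.93, while Acta1 (-0.81 ± 0.66), Ryr1 (0.49 ± 0.40) and Tnni2 (0.18 ± 0.65) did not pass. Tnnt3 was at 16.5, 43.4, 35.6, 214, 13.8 and 82.7 CPM in the Mem+Sol libraries, highest in Mem+Sol 4 and 6. None of 14 adipose and mesothelial genes passed in edgeR, with 4 higher by unadjusted p and none by DESeq2. Of 4 tested lung genes 1 rose, the surfactant gene Sftpa1, with 1 count in all WT libraries and a level over all Mem+Sol libraries 62.3-fold (exact 95% interval 11 to 2474) that of WT. Its call was lost without WT 1. Sftpc had 2 counts in all 11 libraries. All 5 haemoglobin genes of the red blood cell list had 0 counts in the 11 libraries, so they cannot serve as a measure of blood.

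Of 20 immediate early and heat shock genes 6 rose and 1 fell (none under 14 of 23 alternatives), with Hmox1, heme oxygenase (2.09 ± 0.27), and Hspb1 (2.51 ± 0.42) rising and Fos (-0.34 ± 0.42) and Hspa8 (-0.16 ± 0.17) not passing. Of 23 respiratory chain genes 1 fell (Ndufa4, -0.98 ± 0.27) and none rose, with a median of -0.01 that became 0.40 under epithelial scaling, where 7 were higher and none lower, and 1 was higher by unadjusted p on the main scale. None of 23 ribosomal protein genes passed in edgeR (median -0.22, and 0.17 under epithelial scaling), with 1 lower by unadjusted p and by DESeq2.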

How the data were processed

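Poly(A) RNA from a small piece of terminal ileum kept in RNALater was sequenced, per the labels' protocols, with amplification by PCR. The deposited file is a table of whole-number read counts per gene symbol, made by the authors from CASAVA and TopHat2 output on mm10, per the submitters' processing notes. The counting program, its annotation, its strand setting and any version number each count as not given in the sources used here. Of 24062 rows 21769 held a count and 14959 passed edgeR's filterByExpr by genotype, and 27 symbols that a spreadsheet had turned into dates were kept as they stand. Counts were scaled by TMM and fitted with edgeR 4.0.16 in R 4.3.3 (glmQLFit, robust, and glmQLFTest, a two-sided quasi-likelihood test) on all 16 ileum libraries with genotype and sex as terms and 12 residual degrees of freedom. P-values were adjusted by Benjamini-Hochberg over all 14959 genes, with a threshold of 0.05, and the SE is the size of the log2 fold change divided by the square root of F. Ratios of summed counts carry exact 95% intervals, which cover counting error only.

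The 54 gene lists, with 949 symbols of which 940 matched the table and 814 were tested, and the genes to be compared were chosen with earlier results of these data known. Genes were named by rule as Tnfsf15 and Tnfrsf25, the 12 largest changes per direction at a mean log2 CPM of at least 1, the 10 smallest adjusted p-values at a mean of at least 5, and up to 4 called members per list by adjusted p, and other members only with their values. Some genes taken by this rule are not reported here. Alternatives were DESeq2 1.42.0, RLE and upper-quartile scaling, no filter, no sex term, only the 2 groups, male libraries, the replicate block, equal depth and leaving out each of the 11 libraries. A further 3 were chosen after seeing the data: leaving out WT 2 with Mem+Sol 6, leaving out Mem+Sol 4 with 6, and scaling to epithelial genes. Coordinates come from the RefSeq annotation of GRCm38.p6, whose chromosomes are those of mm10.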

Additional observations from a re-analysis of the deposited data

Results flagged for a closer look

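In 386 groups of 5 or 6 libraries (193 named genes in 2 groups), 35 library values in 33 genes lay farther from the rest than Dixon's 95% limit allows. Chance alone gives about 5% of groups where values are normally distributed. Whether these CPM values are was not tested. Mem+Sol 1 held 11 of them, each the highest Mem+Sol value and so the nearest to WT in genes that fell. They are Naaladl1 at 1742 CPM, Dfna5 at 68.8 CPM, Slc6a20a at 49.9 CPM, Enpp7 at 12.4 CPM, Reg3a at 11.3 CPM, Ocm at 10.6 CPM, Cxcl9 at 9.04 CPM, P2ry4 at 6.53 CPM, Cyp3a25 at 3.89 CPM, Slc5a12 at 3.23 CPM and Akr1b7 at 3.17 CPM. The next Mem+Sol value was 565 CPM for Naaladl1 and 0.298 CPM for Enpp7.

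WT 1 held 7 values. It was the highest WT library for the complement component C3 at 385 CPM, its regulator Serping1 at 136 CPM, Retnlb at 26.5 CPM, Retnlg at 3.38 CPM, Ccr3 at 1.35 CPM and Folr2 at 1.16 CPM, all genes that rose in Mem+Sol, and the lowest for Slc34a2 at 834 CPM. WT 2 held 5, being highest for the sphingomyelinase Enpp7 at 606 CPM, Cyp3a13 at 465 CPM, Fabp1 at 28.5 CPM and Mcpt4 at 0.518 CPM and lowest for Siglec5 at 3.63 CPM. WT 4 was highest for Dusp1 at 46.1 CPM and Chat at 3.52 CPM and lowest for Cd68 at 6.09 CPM. WT 5 was highest for Spib at 13.6 CPM and WT 3 for Sftpa1 at 0.13 CPM, which is 1 count.

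Mem+Sol 4 was the highest Mem+Sol library for Mep1b at 689 CPM, Slc34a2 at 413 CPM, Tnnt3 at 214 CPM and the tuft cell factor Gfi1b at 7.59 CPM. Nupr1 was highest in Mem+Sol 5 at 224 CPM, Fads1 in Mem+Sol 6 at 117 CPM and Cxcr2 in Mem+Sol 3 at 8.19 CPM.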

How the results depend on the processing

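Of 193 named genes 191 were called, and 157 of these kept their direction and their call under every alternative that tested them (21 to 23 of 23), while 34 lost the call under at least 1 and none reversed. The 34 include P2ry4 and Cxcr2, counted as lost only because DESeq2 gave them no adjusted p. Tnfsf15, which was not called, turned to log2 -0.097 (adjusted p = 0.84) in the male libraries and -0.028 (adjusted p = 0.94) without WT 1, and lay between that and 0.58 when each library was left out in turn. Calls numbered 5065 by DESeq2 and 3285 with the replicate block. The male libraries alone gave 867 lower genes. Leaving out each library in turn gave 3069 to 4793 called genes, 1873 to 2678 higher and 1196 to 2115 lower, fewest without Mem+Sol 6. The combinations chosen after seeing the data gave 2470 calls (1509 higher, 961 lower) without WT 2 and Mem+Sol 6, and 1774 (1014 higher, 760 lower) without Mem+Sol 4 and 6, where fewer libraries enter the fit. Scaling to epithelial genes gave 4379 higher and 512 lower, and of the 4296 calls 4271 kept their sign and 2998 were again past the threshold. With the replicate block the regenerative list held 7 higher members in place of 12, the enteric neuron list 5 in place of 10 and the stem cell list 3 in place of 6. The libraries share only a number in the labels: correlations of same-numbered deviations were 0.21, 0.33, 0.55, 0.055 and 0.0085, and 2 of 5 WT libraries correlated best with their own number. WT 2, with 4295039 counts, limits the precision at low levels, and with both groups thinned to that depth 3678 genes were called.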

Other observations

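The genes in these paragraphs were chosen after their values were seen. Grp, gastrin-releasing peptide, was at 1.93, 0.259, 0.782, 1.39 and 0.911 CPM in WT and 20.1, 10.6, 14.6, 70.2, 14.1 and 106 CPM in Mem+Sol (log2 fold change 5.04 ± 0.66, adjusted p = 0.00014). Nmu, neuromedin U, which acts on type 2 innate lymphoid cells, was at 0.259 to 3.38 CPM in WT and 11.8 to 118 CPM in Mem+Sol (log2 fold change 4.73 ± 0.72, adjusted p = 0.00036). Calcb, calcitonin gene-related peptide beta (3.30 ± 0.46), Penk, proenkephalin (3.36 ± 0.49), and Vgf, a neurosecretory protein (3.30 ± 0.48), rose as well. Mem+Sol 6 was the highest library for Grp at 106 CPM and for Nmu at 118 CPM, and it was also the library with the highest summed neuron and smooth muscle levels. The part of the muscle wall in these values was not tested. Also higher were C4bp (4.16 ± 0.75), Apoh (4.10 ± 0.51), Serpina3n (3.55 ± 0.53), Igf1 (2.85 ± 0.36) and the interleukin-1 receptor antagonist Il1rn (2.94 ± 0.65).

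The milk protein genes Csn2, beta-casein, and Csn3, kappa-casein, had 2 and 3 counts in all WT libraries and were found in all 6 Mem+Sol libraries, at 7.26, 21.4, 22.4, 10.5, 25.1 and 3.68 CPM for Csn2. Over all libraries the level in Mem+Sol was 362-fold (exact 95% interval 100 to 2987) that of WT for Csn2 and 260.2-fold (exact 95% interval 88.9 to 1262) for Csn3. Both lie on chromosome 5, as does Sult1d1, which fell (-1.97 ± 0.33). Ppef1, a protein phosphatase, had 2 counts in WT and a ratio of 908-fold (exact 95% interval 251 to 7498). The noncoding RNA H19, near Tnnt3 on chromosome 7, rose (4.96 ± 0.81), while Igf2 (-0.03 ± 0.29) and Tnni2 (0.18 ± 0.65) nearby did not pass. Lsp1, looked at with them, rose without overlap between the groups (1.12 ± 0.22). Rbp2, the intestinal retinol-binding protein (2.66 ± 0.59), the nucleoside transporter Slc28a1 (3.71 ± 0.84), the fucosyltransferase Fut2 (2.76 ± 0.51) and Capn13 (4.80 ± 0.59) rose. The drug exporter Abcb1a (-3.17 ± 0.45), the transcription factor Hnf4g (-1.98 ± 0.38), the magnesium channel Trpm6 (-2.60 ± 0.50) and the amine oxidase Maoa (-1.96 ± 0.32) fell.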
